A study of Arabidopsis thaliana with 8 samples.

Results

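The genes described here make or modify the polysaccharides of the plant cell wall: 33 Arabidopsis thaliana genes whose symbols belong to the CSL, GAUT, IRX and TBL families, out of 13356 genes that had a named probe set on the array. They were taken by symbol alone from 8 families of synthesis genes (CESA, CSL, GAUT, GATL, TBL, IRX, FUT and GSL). No measured value entered that rule, but it was chosen with earlier results of these data known. Only probe sets that the annotation ties to a single gene were used. Each of the 33 genes had 1 such probe set. The RefSeq gene table lists 128 genes with symbols of these families, and those without a probe set named in that annotation were not analysed. The CSLC family was measured whole, with 5 of 5 genes, and the TBL family in part, with 22 of 41. Of CSLA 2 of 9 genes were measured, of CSLD 1 of 6, of GAUT 1 of 13 and of IRX 2 of 10. The cellulose synthases (CESA, 0 of 7), the callose synthases (GSL, 0 of 9), the fucosyltransferases (FUT, 0 of 11), GATL (0 of 7) and the CSLB, CSLE and CSLG families (0 of 6, 0 of 1 and 0 of 3) had none, so cellulose, callose and most pectin synthesis are outside what is described here.

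Total RNA came from 5-day-old whole seedlings of the Col background, grown in the light on vertical plates of diluted Murashige and Skoog medium. Each of the 8 samples was hybridised to 1 single-colour Affymetrix array. Wild type had 2 arrays, aha1 had 3 (2 of aha1-6 and 1 of aha1-7) and aha2 had 3 (2 of aha2-4 and 1 of aha2-5). AHA1 and AHA2 are the main plasma membrane proton pumps of the plant. Each allele is 1 line, the aha1-7 and aha2-5 alleles were measured once, and the labels do not say how many seedlings were pooled. A string shared by the sample descriptions divides the arrays into a first set, with 1 array of each group, and a second set, with 1 wild type, 2 aha1 and 2 aha2 arrays. Both second alleles lie in the second set. The labels do not state separate cultures, so every p-value here rests on a spread between samples that may be technical.

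The primary wall of a seedling is a network of cellulose tied by xyloglucan and embedded in pectin, with mannans and xylans as further hemicelluloses. CSLC and CSLA enzymes make the backbones of xyloglucan and mannan in the Golgi, GAUT proteins belong to the family that builds the homogalacturonan of pectin, IRX15 and IRX15-L are needed for normal xylan, and many TBL proteins add acetyl groups to these polymers. Proton pumping acidifies the wall, and the acid growth of plant cells depends on that acid wall, which is the background to asking whether wall synthesis genes differ in pump mutants.

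Signals are deposited intensities, given here as log2(value + 1) after quantile normalization. A difference of 1 on that scale is a factor of 2, and it understates the change of dim genes. The signal medians of the 8 arrays ran from 358.1 to 410.2. Of the 33 genes, 18 lay above the median signal of all 22746 probe sets tested and 15 at or below it. No gene was under a signal of 50 on every array, and 6 (CSLA01, IRX15, TBL19, TBL20, TBL42 and TBL43) were under it on some. Levels are compared between arrays for one probe set, never between genes. The mutant labels were not checked against AHA1 and AHA2, for which no probe set was named. Of the markers fixed for whole seedlings, PYK10 (root; log2 level 14.68 to 15.15) and RCA (shoot photosynthesis; log2 level 15.25 to 15.57) were bright on all 8 arrays. The pollen genes ANX1 and ANX2 were under a signal of 50 on all 8, and none of the 12 xylem and secondary wall markers had a named probe set. In whole seedlings, fewer cells of a type and less RNA per cell cannot be told apart.

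None of the 33 genes differed between groups past an adjusted p of 0.05 in limma's moderated test, which fitted group and set over all probe sets. The count was 0 of 33 for aha1 against wild type, where 0% of all 22746 probe sets passed, 0 of 33 for aha2 against wild type, where 0% passed, and 0 of 33 for aha1 against aha2, where 0% passed. When the dimmer probe sets were left out before adjustment, 0 of 18 genes passed in each comparison, beside 0%, 0.0264% and 0.176% of all brighter probe sets. With aha1-7 also left out it was again 0 of 18, beside 0.264%, 0.572% and 3.09%. At an unadjusted p under 0.05, 0 of 33 genes passed for aha1 against wild type (5.01% of all probe sets), 1 for aha2 against wild type (TBL42; 4.04%) and 2 for aha1 against aha2 (TBL26 and TBL43; 10.6%). These shares lie near or under the background. Both mutants are compared with the same 2 wild type arrays.

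The median log2 fold change of the 33 genes was -0.02 for aha1 against wild type, with 15 genes higher and 18 lower, where the median of all probe sets was 0.00. For aha2 against wild type it was -0.03, with 16 higher and 17 lower, where all probe sets gave -0.01. Of the 18 brighter genes 5 were higher and 13 lower, where 48.0% of all brighter probe sets were higher. Of the 15 dimmer genes 11 were higher and 4 lower, where 48.3% of all probe sets, bright and dim together, were higher. The share of the dimmer probe sets alone was not counted. For aha1 against aha2 the median of the 33 genes was 0.11, with 20 higher and 13 lower, where all probe sets gave 0.02. It ranged from -0.02 to 0.11 as each array in turn was left out. Here 14 of the 18 brighter genes were higher and 4 lower, where 51.1% of all brighter probe sets were higher. The median of the 18 was 0.21, where all brighter probe sets gave 0.01. That median was 0.10 without aha1-7, still with 14 of the 18 higher, where 49.7% of all brighter probe sets were higher. With the length trend removed the median was 0.08, with 13 of the 18 higher, where the share was 52.0%. That share includes probe sets without a gene span, which were not corrected. The 15 dimmer genes had 6 higher and 9 lower, where 51.7% of all probe sets, bright and dim together, were higher. The intervals show how large a change the spread between these arrays leaves room for. That spread may be technical, so the intervals do not limit a difference between separate cultures. Among the 18 brighter genes, the 95% interval lay wholly within a 2-fold change either way for 17 genes in aha1 against wild type, 17 in aha2 against wild type and 16 in aha1 against aha2. Among the 15 dimmer genes this held for only 5, 7 and 5, with standard errors of up to 1.23 for either mutant against wild type.

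**Figure D1:**
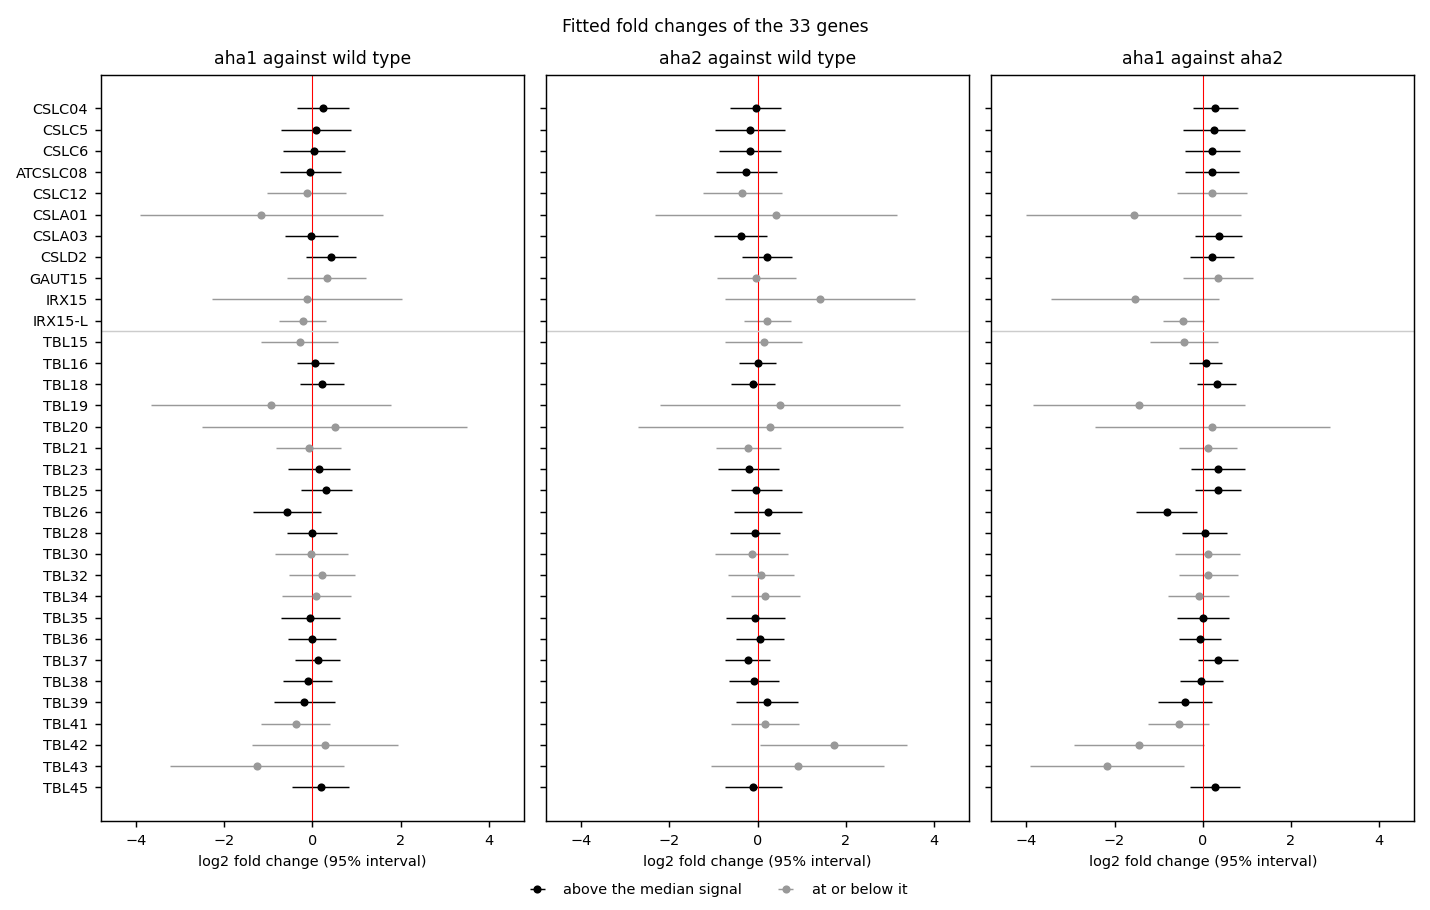
Fitted log2 fold changes (horizontal axis, with 95% intervals as lines) of the 33 genes (rows) in the 3 comparisons (panels), with genes above the median signal of all probe sets in black and the others in grey. The black points farthest from 0 are TBL26, at -0.58 in aha1 against wild type and -0.82 in aha1 against aha2, and CSLD2, at 0.42 in aha1 against wild type, while the grey genes CSLA01, IRX15, TBL19, TBL20, TBL42 and TBL43 have the widest intervals.

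Xyloglucan backbone synthesis is carried by the CSLC proteins, and CSLC04 was taken for the highest mean signal of the family. CSLC04 stood at 10.95 and 11.09 in wild type (first and second set), 10.96, 11.22 and 11.72 in aha1 (aha1-6 in the first set, aha1-6 in the second, aha1-7), and 11.02, 11.03 and 10.99 in aha2 (aha2-4 in the first set, aha2-4 in the second, aha2-5). Of the 8 arrays, 7 lay between 10.95 and 11.22, and aha1-7 was alone above them. The fitted difference was 0.24 (SE 0.24, limma adjusted p = 0.937) for aha1 against wild type, -0.04 (SE 0.24) for aha2 against wild type and 0.29 (SE 0.21) for aha1 against aha2. Without aha1-7 the first and last were 0.07 and 0.09, and with the length trend removed they were 0.13 and 0.10.

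The other CSLC genes, named after their values were seen, had the same array on top. CSLC6 stood at 9.70 and 10.04 in wild type, 9.49, 9.84 and 10.67 in aha1, and 9.46, 9.93 and 9.96 in aha2. CSLC5 stood at 10.38 and 9.84 in wild type, 10.23, 9.71 and 10.56 in aha1, and 9.71, 10.01 and 10.03 in aha2. In both, aha1-7 was the highest of the 8 arrays while the aha1-6 arrays lay among the others. CSLC12, whose probe set was below the median signal, stood at 7.63 and 7.32 in wild type, 7.29, 6.82 and 7.91 in aha1, and 7.04, 7.39 and 6.95 in aha2. ATCSLC08, which the naming rule also took, stood at 8.62 and 9.16 in wild type, 8.85, 8.56 and 9.19 in aha1, and 8.65, 8.45 and 8.88 in aha2, so that aha1-7 was only just above the second wild type array.

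The shift of the CSLC family lay on the aha1-7 array and not on the other aha1 arrays. Against wild type of the same set, the median CSLC log2 difference was 0.63 on aha1-7, with 5 of 5 genes higher, but -0.15 and -0.20 on the aha1-6 arrays and -0.24, -0.06 and -0.10 on the aha2 arrays. The fitted aha1 against aha2 difference was positive for 5 of 5 genes, from 0.21 to 0.29 with a median of 0.22. Without aha1-7 that median was 0.02, with 3 of 5 genes positive. For aha1 against wild type the median went from 0.04 to -0.18 without aha1-7, with 3 of 5 and then 1 of 5 genes positive. For aha2 against wild type all 5 fitted differences were below 0, with a median of -0.18 (-0.16 without aha1-7), and none passed the test.

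**Figure D2:**
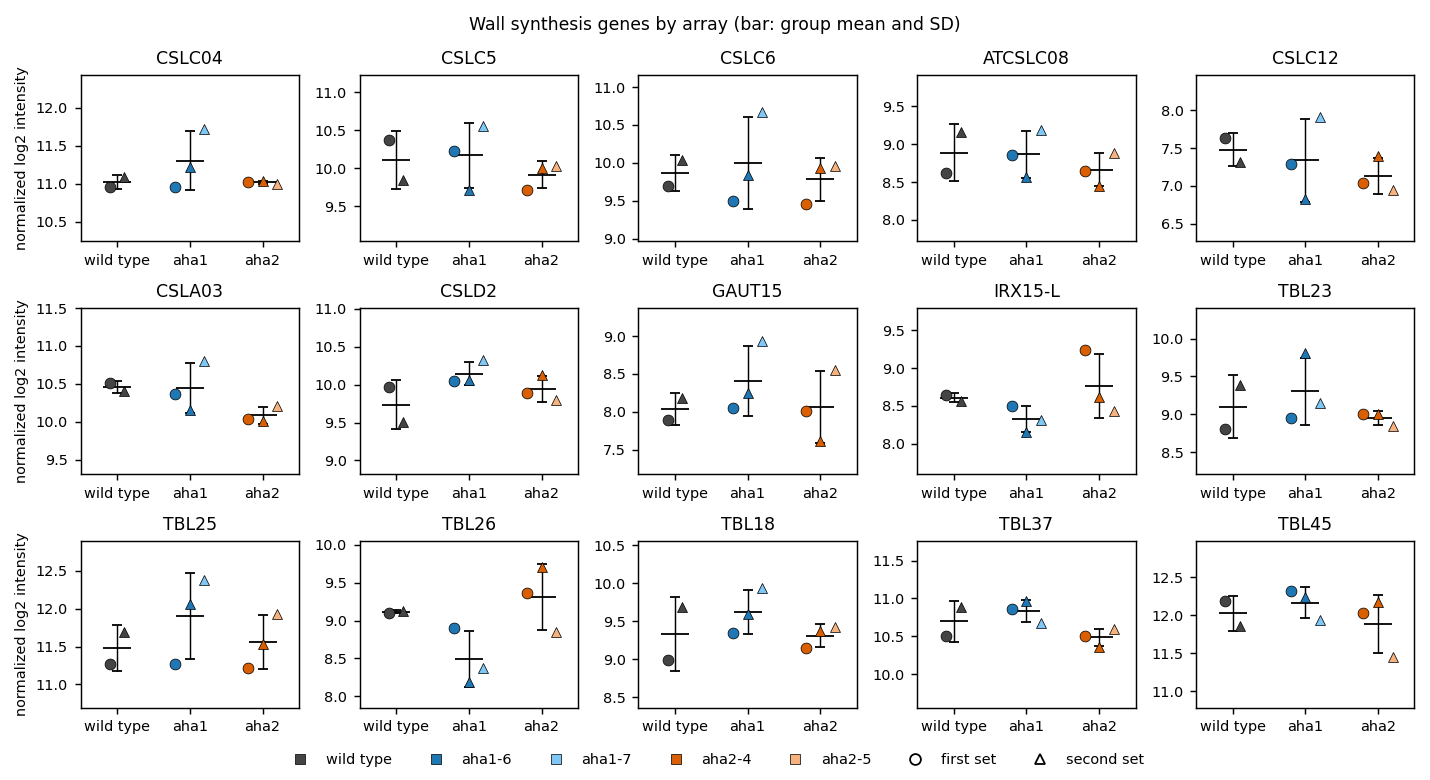
Normalized log2 signal (vertical axes) of selected genes on each of the 8 arrays, by group (wild type, aha1, aha2), with alleles marked by colour, sets by symbol, and bars for the group mean and SD. In the CSLC panels the highest point is the aha1-7 array, and in the TBL26 panel the 3 aha1 points, 8.19 to 8.90, lie under both wild type points, 9.10 and 9.13.

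The aha1-7 array stood apart in the same way for most CSL genes and for many probe sets outside these families. It was the highest of the 8 arrays for 7 of 8 CSL genes and 12 of all 33 genes, where it was the highest for 28.5% of all probe sets. It was the lowest for 6 of the 33, where the share of all probe sets was 23.6%. Gene length moved with this. Against the mean of the other arrays, aha1-7 differed by a median of 0.69 for the CSLC genes, which span 3395 to 3557 bases in the RefSeq table of TAIR10.1, while all brighter named probe sets have a median span of 2384 bases. When a smooth trend of signal on gene span was removed from each array, the CSLC median was 0.31, still with 5 of 5 genes higher. The aha1-7 array was then the highest for 2 of 5 CSLC genes and 2 of 8 CSL genes, where the share of all probe sets was 31.3%. Probe sets without a gene span kept their values, so that share mixes corrected and uncorrected probe sets, whereas all 33 genes were corrected. Over all 33 genes aha1-7 was then the highest for 6 and the lowest for 9. The share of all probe sets for which it was then the lowest was not counted, so the 9 has no background here.

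The median of all 8 CSL genes on that array went from 0.57 to 0.20 when the trend was removed, and that of the 2 IRX genes, which span 1209 and 1393 bases, from -0.47 to 0.33. The 22 TBL genes, with a median span of 2763.5 bases, gave -0.23 with 8 genes higher, and -0.32 with 8 higher when the trend was removed. The 12 brighter TBL genes gave -0.09, with 5 higher, and -0.14 with the trend removed. The part of gene length in these values was not tested further. Among the 18 brighter genes 0 stood over 2-fold away from the other arrays' mean on aha1-7, where 10.7% of all brighter probe sets did. With 1 array of this allele, allele and array cannot be told apart.

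**Figure D3:**
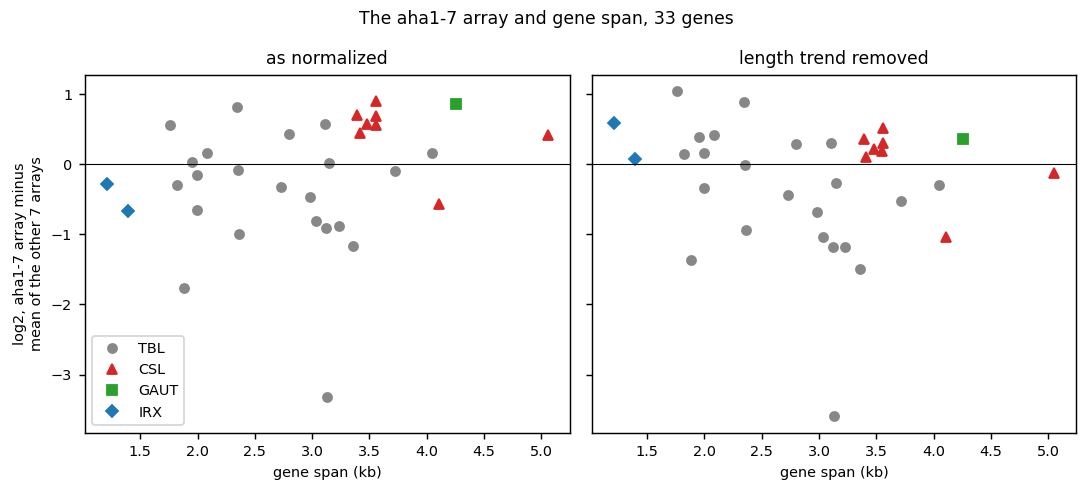
Log2 difference between the aha1-7 array and the mean of the other arrays (vertical axis) against gene span in kb (horizontal axis) for the 33 genes, marked by family, as normalized (left) and with the length trend removed (right). Of the 8 CSL genes 7 lie above 0 on the left, and 6 lie above it on the right, closer to 0.

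Mannan backbones are made by CSLA enzymes, and CSLA03 acts in glucomannan synthesis. CSLA03 stood at 10.52 and 10.41 in wild type, 10.37, 10.16 and 10.81 in aha1, and 10.04, 10.00 and 10.21 in aha2. All 3 aha2 arrays lay under both wild type arrays, by 0.20 to 0.48 within a set, whereas the aha1 arrays lay on both sides. The fitted difference for aha2 against wild type was -0.38 (SE 0.24, 95% interval -0.98 to 0.22, unadjusted p = 0.169, limma adjusted p = 0.9998), and it stayed between -0.49 and -0.29 under the 16 alternative settings. For aha1 against aha2 it was 0.36 (SE 0.22) and for aha1 against wild type -0.03 (SE 0.24). With the length trend removed these 2 values were 0.17 and -0.14. CSLA01, the other measured mannan synthase gene, was under a signal of 50 on some arrays and ranged over 3.83 log2 units with the groups overlapping. Against wild type of the same set it stood at -0.61, -1.95 and -2.04 on the aha1 arrays and at 3.22, -0.73 and -2.38 on the aha2 arrays.

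Acetyl groups are added to mannans by TBL23, TBL25 and TBL26, and of these TBL26 had the largest difference between the mutants among the brighter genes. TBL26 stood at 9.10 and 9.13 in wild type, 8.90, 8.19 and 8.38 in aha1, and 9.36, 9.71 and 8.85 in aha2. The aha1 arrays were all under wild type and, apart from an overlap of the first aha1-6 array with aha2-5, under aha2. The difference for aha1 against aha2 was -0.82 (SE 0.28, 95% interval -1.50 to -0.13, unadjusted p = 0.0275, limma adjusted p = 0.425) and for aha1 against wild type -0.58 (SE 0.32, limma adjusted p = 0.937). Both alleles of aha1 were low, and without aha1-7 the difference between the mutants was -0.79. Without the second aha2-4 array it was -0.55, and without the second wild type array the difference from wild type was -0.38. Its smallest limma adjusted p in any of the 16 settings was 0.0898, in the fit without the dimmer probe sets and without aha1-7.

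TBL25 and TBL23 did not share that pattern. TBL25 stood at 11.27 and 11.69 in wild type, 11.27, 12.07 and 12.38 in aha1, and 11.21, 11.54 and 11.93 in aha2. Its 3 lowest arrays were the 3 arrays of the first set, and the second set was higher by 0.65 (SE 0.19, unadjusted p = 0.0143, limma adjusted p = 0.488). With the set in the model, aha1 against wild type was 0.32 (SE 0.24), but 0.19 without aha1-7 and 0.15 without the second wild type array. TBL23, named after its values were seen, ranged from 8.81 to 9.80 and was highest on the second aha1-6 array, with 0.15 (SE 0.28) for aha1 against wild type and -0.20 (SE 0.28) for aha2 against wild type.

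Xylan acetylation by TBL28, TBL30, TBL32, TBL34 and TBL35 was fitted with differences near 0 for most genes. The fitted values of the 5 genes lay between -0.05 and 0.21 for aha1 against wild type and between -0.13 and 0.17 for aha2 against wild type, with 2 genes higher and 3 lower in each. Without aha1-7, TBL32 went from 0.21 to 0.46 (SE 0.18, unadjusted p = 0.0536, limma adjusted p = 0.696) for aha1 against wild type and from 0.13 to 0.40 (SE 0.16, unadjusted p = 0.0633) for aha1 against aha2. For aha1 against aha2, 4 of the 5 genes were higher in aha1 with that array, at a median of 0.04, and 5 of 5 without it. In the second set alone 1 was higher and 4 were lower, at a median of -0.12. TBL28, named after its values were seen, stood at 8.91 and 8.84 in wild type, 8.85, 9.07 and 8.56 in aha1, and 9.01, 8.81 and 8.55 in aha2. The aha1-7 and aha2-5 arrays were its lowest. TBL32 was higher in the first set (8.54, 8.94 and 8.33) than in the second (7.15 to 7.92), a set difference of -1.07 (SE 0.24, unadjusted p = 0.00461, limma adjusted p = 0.456). Its probe set is of a type that can match more than 1 transcript. Over the 33 genes, 3 had an unadjusted p under 0.05 for the set term, where 9.15% of all probe sets did, and 4 had sets that did not overlap, where the share was 8.89%.

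Xylan itself needs IRX15 and IRX15-L, paralogs of which IRX15 was under a signal of 50 on some arrays. IRX15-L stood at 8.65 and 8.57 in wild type, 8.50, 8.15 and 8.32 in aha1, and 9.24, 8.62 and 8.43 in aha2. The 3 aha1 arrays were under both wild type arrays, while the aha2 arrays lay on both sides. The fitted difference was -0.22 (SE 0.22) for aha1 against wild type, 0.22 (SE 0.22) for aha2 against wild type and -0.44 (SE 0.19, unadjusted p = 0.0626, limma adjusted p = 0.485) for aha1 against aha2. With the length trend removed, these were 0.03, 0.11 and -0.07 (unadjusted p = 0.825 for the last). Without the first aha2-4 array the last was -0.27. IRX15, near the bottom of the range at log2 levels of 3.0 to 6.83, was lower on all 3 aha1 arrays than on all 3 aha2 arrays, with wild type at 5.65 and 3.0.

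Root hair growth needs CSLD2, a cellulose synthase-like enzyme of tip-growing cells. CSLD2 stood at 9.96 and 9.50 in wild type, 10.05, 10.06 and 10.33 in aha1, and 9.90, 10.13 and 9.80 in aha2. The aha1 arrays were above both wild type arrays, with the second wild type array the lowest of all. The fitted difference was 0.42 (SE 0.23, 95% interval -0.15 to 0.99, unadjusted p = 0.121, limma adjusted p = 0.937) for aha1 against wild type and 0.22 (SE 0.23) for aha2 against wild type. Without that wild type array the values were 0.11 and -0.09, and without the first wild type array the first was 0.68. With the length trend removed they were 0.24 and 0.33.

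Of the 8 root hair markers 2 were measured. The expansin gene EXPA7 stood at 8.71 and 8.15 in wild type, 8.35, 8.05 and 7.20 in aha1, and 8.83, 9.07 and 8.52 in aha2, a difference of -0.94 between aha1 and aha2 (SE 0.31, unadjusted p = 0.0228, limma adjusted p = 0.415). EXPA18 stood at 8.18 and 9.34 in wild type, 8.41, 8.90 and 7.96 in aha1, and 9.28, 9.20 and 9.23 in aha2. It gave -0.81 (SE 0.35, limma adjusted p = 0.485) between aha1 and aha2, with its wild type arrays far apart. The lowest of the 8 arrays was aha1-7 for both expansin genes. CSLD2 gave 0.21 (SE 0.21) for aha1 against aha2. The part of root hair cells in these values was not tested.

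Pectin synthesis was represented by GAUT15 alone, a member of the galacturonosyltransferase family. GAUT15 stood at 7.89 and 8.19 in wild type, 8.05, 8.25 and 8.93 in aha1, and 8.01, 7.61 and 8.56 in aha2. The aha1-7 and aha2-5 arrays were the highest, above every array of the first allele of either gene. The fitted difference was 0.32 (SE 0.36) for aha1 against wild type, -0.03 (SE 0.36) for aha2 against wild type and 0.35 (SE 0.32) for aha1 against aha2. Without aha1-7 the values for aha1 were 0.11 against wild type and 0.11 against aha2. With the length trend removed they were 0.16 and 0.09.

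Among the 14 TBL genes outside both acetylation groups, TBL45 was taken for the highest mean signal of the TBL family. TBL45 stood at 12.19 and 11.86 in wild type, 12.32, 12.24 and 11.93 in aha1, and 12.04, 12.18 and 11.45 in aha2. The groups overlapped, and aha2-5 was the lowest array. TBL37 stood at 10.50 and 10.89 in wild type, 10.85, 10.96 and 10.68 in aha1, and 10.50, 10.36 and 10.59 in aha2. Its 3 aha1 arrays were above its 3 aha2 arrays, a difference of 0.35 (SE 0.18, unadjusted p = 0.110, limma adjusted p = 0.522), with wild type spread over both. TBL18 stood at 8.99 and 9.68 in wild type, 9.35, 9.59 and 9.93 in aha1, and 9.14, 9.37 and 9.42 in aha2. It was higher in aha1 than in aha2 by 0.31 (SE 0.18, limma adjusted p = 0.535), with the groups overlapping. With the length trend removed the differences between the mutants were 0.22 for TBL37 and 0.19 for TBL18.

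The steadiest gene of all 33, named after its values were seen, was TBL16, whose 8 arrays lay between 9.28 and 9.54. The largest fitted changes belonged to dim genes. TBL42 stood at 2.85 and 2.93 in wild type, 2.47, 4.83 and 2.76 in aha1, and 3.69, 5.11 and 5.60 in aha2. All 3 aha2 arrays were above wild type, by a fitted 1.72 (SE 0.68, 95% interval 0.06 to 3.38, unadjusted p = 0.0440, limma adjusted p = 0.9998). Wild type signals were 5.54 and 6.96, and the fitted value ranged from 0.89 with the larger offset of 16 to 2.43 in the second set alone. It was 0.95 without the second wild type array, and with the length trend removed the interval included 0 (unadjusted p = 0.0527). TBL43 stood at 5.82 and 5.83 in wild type, 6.38, 4.07 and 2.63 in aha1, and 6.84, 6.34 and 6.38 in aha2, with -2.17 (SE 0.71, unadjusted p = 0.0229, limma adjusted p = 0.415) for aha1 against aha2. With the offset of 16 it was -1.40. It was the aha1-7 and second aha1-6 arrays that were low, while the first aha1-6 array lay within the aha2 range. At these levels a change of few signal units makes a large log2 difference.

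Complete separation of the arrays of 2 groups was no more common than elsewhere on the array. Between aha1 and wild type it occurred for 4 of 33 genes (CSLD2 higher in aha1, and TBL26, TBL41 and IRX15-L lower), where 18.8% of all probe sets separated, 9.99% with aha1 higher and 8.82% with aha1 lower. Between aha2 and wild type it occurred for 5 genes (TBL19, TBL42 and TBL43 higher in aha2, and TBL38 and CSLA03 lower), where 20.9% separated, 10.7% higher and 10.2% lower. Between the mutants it occurred for 3 genes (TBL37 higher in aha1, and TBL41 and IRX15 lower), where 16.6% separated, 8.56% higher and 8.09% lower. TBL38, an atypical member that removes acetyl groups from homogalacturonan, differed by only -0.08 (SE 0.23) in aha2 against wild type.

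**Figure D4:**
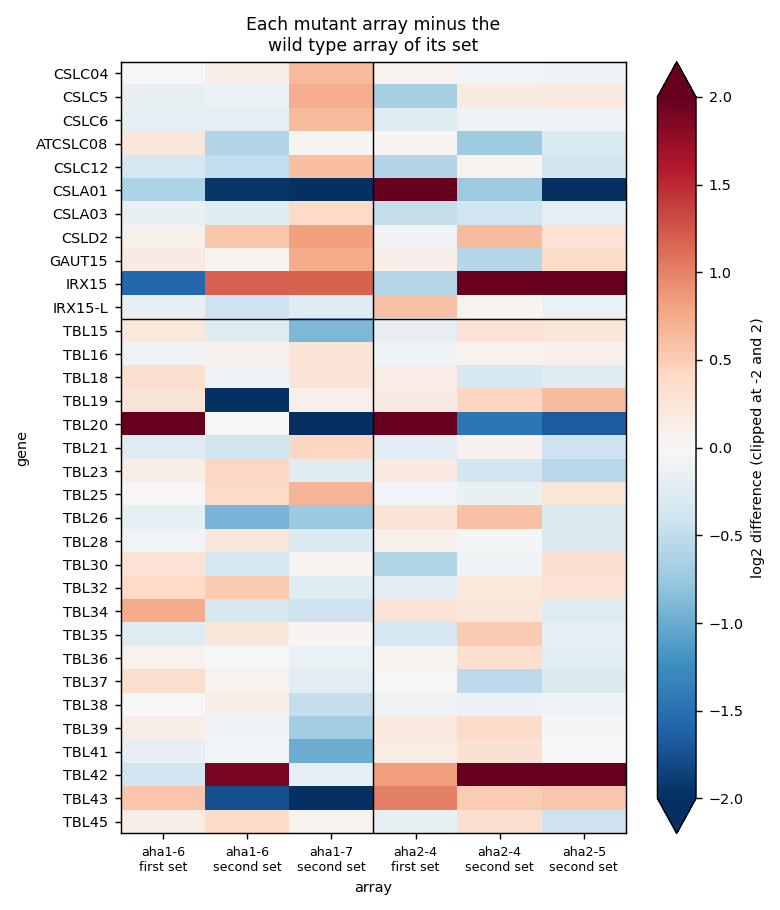
Log2 difference of each of the 33 genes (rows, by family) on each mutant array (columns) from the wild type array of its set, in colour, with colours clipped at -2 and 2. The CSLC rows are above wild type on aha1-7, at a family median of 0.63, and TBL26 is below it on all 3 aha1 arrays.

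Measured against the wild type array of its set, each mutant array gave a small median difference over the 33 genes. It ran from -0.10 on aha2-5, with 12 genes higher and 21 lower, to 0.07 on the second aha2-4 array, with 19 higher and 14 lower. Over all probe sets the medians ran from -0.01 on the second aha2-4 array to 0.06 on aha1-7. Among the 18 brighter genes aha2-5 gave a median of -0.19, with 4 higher and 14 lower. All brighter probe sets gave -0.004 on that array, with 5612 higher and 5747 lower. For the 18 genes the aha2-4 arrays gave -0.03 and -0.04, each with 8 higher and 10 lower. For the same brighter genes, the aha1-6 arrays gave 0.00 and 0.08 and aha1-7 gave 0.06.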

How the data were processed

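Each deposited file gives 1 linear intensity for every probe set. Per the submitters' processing notes, the authors used Affymetrix Expression Console 1.1, and how probes were summarised was not stated there. The intensities were converted to log2(value + 1) and then quantile normalized. Array controls were dropped, and 22746 probe sets were fitted in R 4.3.3 by limma 3.58.1 (lmFit, then eBayes; group and set as terms; 8 arrays; 4 residual degrees of freedom), with Benjamini-Hochberg adjustment over all of them at 0.05. The code was tested on simulated data.

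Gene names came from the platform annotation, with symbols and gene spans from the RefSeq table of TAIR10.1. The genes and lists were chosen with earlier results of these data known. The naming rule took the highest-mean gene of each family, the 4 smallest p-values per comparison among genes above the median signal, and up to 3 dim genes. The other 6 lists of wall genes held 109 genes, of which 1 (COB) was measured. Alternatives were another offset (16), no quantile normalization, the dimmest 50% left out with and without aha1-7, no set term, only the groups compared, each array left out in turn with the rest normalized again, a loess trend on gene span removed (span 0.5) and, added after seeing the data, the second set alone. The number of arrays limits the precision. Replicate numbers only name samples, so no paired fit was made.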

Additional observations from a re-analysis of the deposited data

How the results depend on the processing

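The counts of genes past the threshold were 0 in each of the 3 comparisons under all 16 settings; at an unadjusted p under 0.05 they ran from 0 to 1, from 0 to 2 and from 0 to 3 genes (aha1 against wild type, aha2 against wild type, aha1 against aha2). Over all 22746 probe sets, 1139, 919 and 2417 had an unadjusted p under 0.05 in the main fit (5.01%, 4.04% and 10.6%). Without aha1-7 the numbers were 1611, 1423 and 2619. The background differs by setting, so the ranges over the 33 genes are not read as a result about them. The choice of the lowest-mean probe set was not run, since each gene had 1 probe set. The median of the 33 genes for aha1 against wild type was 0.0451 with the length trend removed and -0.0407 to 0.0753 as each array was left out. For aha2 against wild type it was 0.0288 with the length trend removed and -0.0316 to 0.0387 as each array was left out. For aha1 against aha2 it was 0.19 without quantile normalization, 0.0396 with the length trend removed, and -0.0178 to 0.11 as each array was left out. With the dimmest 50% left out only the 18 brighter genes remain, so those medians are of fewer genes. For these 18 the median was 0.0547 for aha1 against wild type, or 0.0444 with aha1-7 also left out. For aha1 against aha2 the 18 genes gave 0.21. Single genes changed sign near 0. With the length trend removed, IRX15-L was 0.0343 for aha1 against wild type, GAUT15 0.0687 and CSLC04 0.0288 for aha2 against wild type, and CSLD2 -0.0868 for aha1 against aha2. Without the set term GAUT15 was 0.0242 for aha2 against wild type, and in the second set alone CSLA03 was 0.0732 for aha1 against wild type and IRX15-L -0.0412 for aha2 against wild type. As each array was left out, aha1 against wild type ran from -0.20 to 0.12 for CSLA03 and from -0.41 to 0.0044 for IRX15-L. Likewise aha2 against wild type ran from -0.22 to 0.25 for GAUT15, from -0.19 to 0.00998 for CSLC04, from -0.28 to 0.0808 for TBL45, from -0.49 to 0.0269 for ATCSLC08, from -0.0943 to 0.48 for CSLD2 and from -0.42 to 0.0026 for TBL37. The causes of these changes were not tested. Leaving out 1 wild type array leaves a single one, which the fit assumes to vary like the other groups.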

Other observations

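Wall genes outside the symbol rule had few named probe sets. COB, a GPI-anchored protein needed for oriented cellulose deposition, was close to level: it stood at 12.25 and 12.27 in wild type, 12.12, 12.09 and 12.29 in aha1, and 12.21, 12.23 and 11.91 in aha2. The fitted difference was -0.09 (SE 0.19) for aha1 against wild type and -0.14 (SE 0.19) for aha2 against wild type. A synonym search, made after the annotation was seen, added 3 genes. GUT1 and GUT2, also called IRX10-L and IRX10, are xylan xylosyltransferases. GUT1 lay between 10.42 and 10.61 on all 8 arrays. GUT2 stood at 9.04 and 9.41 in wild type, 9.14, 9.04 and 8.90 in aha1, and 9.33, 9.22 and 9.61 in aha2, so that all aha1 arrays were under all aha2 arrays, by a fitted -0.36 (SE 0.19, limma adjusted p = 0.524). AT2G31110, listed also as TBL40, ranged from 8.76 to 9.13 and differed by -0.15 (SE 0.17) in aha1 and -0.06 (SE 0.17) in aha2 against wild type.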
